A study of Mus musculus with 8 samples.

Results

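The nuclear receptor family is described here through 34 listed mouse genes, of which 31 were measured by a probe set that the platform annotation assigns to exactly 1 gene, among 30627 such genes on the array. The list leaves out the liver X receptors, the farnesoid X receptor, HNF4, ROR, REV-ERB and the androgen receptor. Ppard and Esrra share their probe sets with another annotated gene and Nr2e3 has none listed, so these 3 are not analysed here. Livers came from 8 male C57BL/6 mice kept for 13 weeks on a high fat diet, as a model of raised blood cholesterol. Then 4 mice, called treated here, had 5 intraperitoneal injections of anti-miR-128-3p, which blocks the microRNA named in it, and 4 mice had control injections, called vehicle in one label. The protocol text of every sample names the microRNA rather than its inhibitor, and the groups follow the titles. The labels give neither the age of the mice nor the dose or chemistry of the inhibitor, and no measurement of miR-128-3p itself was used here. Each array is taken as 1 mouse from its numbered title. The p-values set a difference between groups against the spread between arrays within groups, which limma moderates over all genes.

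Nuclear receptors are transcription factors that bind DNA through a pair of zinc fingers and hold a pocket for a small fat-soluble ligand, such as a fatty acid, a retinoid, a steroid, thyroid hormone or a drug. Several of them, among them the PPARs, CAR and PXR, the retinoic acid receptors, the thyroid hormone receptors and the vitamin D receptor, bind DNA with a retinoid X receptor as partner. In hepatocytes they set the pace of fatty acid oxidation, drug clearance, bile acid synthesis and the response to fasting. Rxra, the main retinoid X receptor of liver, has been reported as a target of miR-128-2 in cultured cells, together with the cholesterol exporters Abca1 and Abcg1, so the question here is whether receptor transcripts were at another level when the microRNA was inhibited.

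The mature microRNA is shown because the injected inhibitor is directed against it, with its seed, bases 2 to 8, in capitals. RefSeq places the same sequence in Mir128-1, at chr1:128202404-128202424 on the plus strand of GRCm38.p6, and in Mir128-2, at chr9:112118644-112118664 on the minus strand.
mmu-miR-128-3p: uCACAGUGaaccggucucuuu

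The values are log2 signals made by RMA, in which 1 unit is a doubling of signal. Differences are treated minus control, with limma's standard error (SE). Signals of different probe sets are not comparable as transcript amounts. The negative control rows had medians between 4.32 and 4.48 on the 8 arrays, and their 95th percentile lay between 7.40 and 7.53. On all 8 arrays 8 members were above that percentile: Ppara, Rxra, Thrb, Nr1i2, Nr1i3, Nr2f6, Nr3c1 and Nr5a2. Esr2, Pgr and Nr4a3 were below the negative control median on all 8. Nr2c2 was above the 95th percentile on 5 arrays and Rara and Nr4a1 on 1 each, and the remaining members lay between median and percentile on all 8. Differences of dim probe sets are more strongly compressed. The hepatocyte genes bore out the tissue, with Alb, the albumin gene, at 13.86 to 14.02. As bulk liver was measured, fewer cells of a type and less RNA per cell cannot be told apart. Some livers stood apart in other cells' genes. The neutrophil list was 1.54 above its mean in control replicate 1. Marco, a macrophage scavenger receptor gene, was at 9.72 in treated replicate 1 against 6.08 to 6.89 elsewhere. Col1a1, a collagen gene of stellate cells, was at 9.96 in treated replicate 3 against 6.88 to 7.01 in controls. Their part in the results below was not tested beyond leaving those arrays out.

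No member passed correction over all genes. With limma, 0 of 31 members and 0 of 30627 genes (0%) were called after adjustment at a threshold of 0.05. The smallest adjusted p of a member was 0.571, and that of any gene was 0.194. Without adjustment, 2 members had a p under 0.05, or 6.45%, against 7.63% of all genes. Both, Nr1i2 and Ppara, were lower in treated livers, where 3.37% of all genes were lower at that level. None of the 31 was higher at that level, against 4.26% of all genes. In 0 members did the groups separate fully, against 4.41% of all genes. The family's share was thus close to the background.

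Differences of most receptors were small, as they were for most genes. The median log2 difference of the 31 members was -0.02, against -0.00 for all genes (a median of -0.0017). Of the members 22 were lower and 9 higher, or 71.0% lower against 50.9% of all genes. Leaving out single arrays gave 16 lower members (without treated replicate 3) to 24 (without control replicate 4). It was 14 without control replicate 1 and treated replicate 3 together, an alternative chosen after seeing the data. The share of lower genes over all genes was not counted at these settings. The median size of a difference, whatever its sign, was 0.055 in the family and 0.053 over all genes. The 95% interval of the difference stayed within a 1.5-fold change in either direction for 27 of 31 members, a smaller share than the 29005 of 30627 genes with such an interval, and for dim probe sets this bounds the signal and not the transcript.

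**Figure D1:**
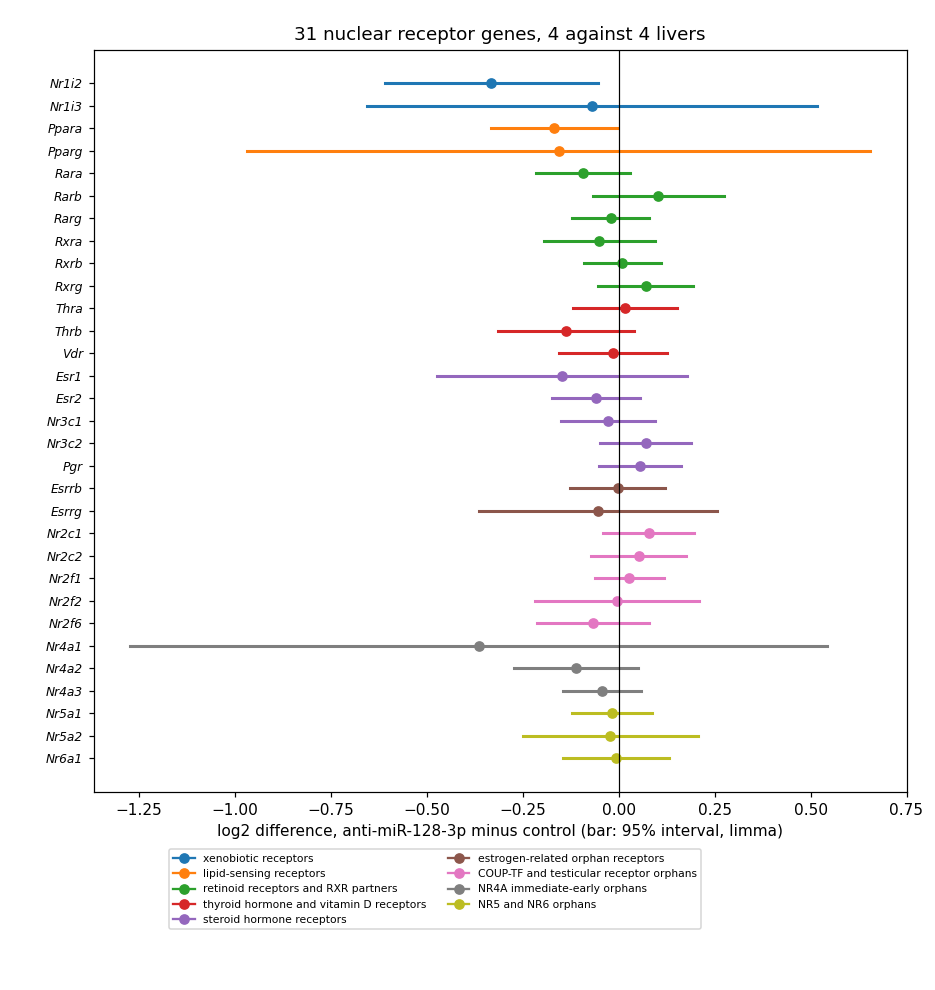
Log2 difference between treated and control livers for the 31 measured receptor genes (x axis), with limma's 95% interval as a bar, grouped and coloured by class (y axis). Most points lie within 0.1 of 0; Nr1i2 and Ppara have intervals that lie below 0, and Nr4a1 and Pparg have the widest intervals.

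All 8 of the brightest receptors had lower means in treated livers, with a median difference of -0.07. Over the 4648 genes that passed the same signal limit the median was -0.01 and 54.0% were lower. The count was 8 of 8 also after quantile normalization and after centring arrays on their medians. It was 6 without control replicate 3, 6 without treated replicate 3, and 5 without control replicate 1 and treated replicate 3. Of the 8, 4 had their lowest value in treated replicate 1 (Ppara, Thrb, Nr1i2 and Nr3c1) and 3 in treated replicate 3 (Nr1i3, Nr2f6 and Nr5a2). The same was not counted over all genes.

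**Figure D2:**
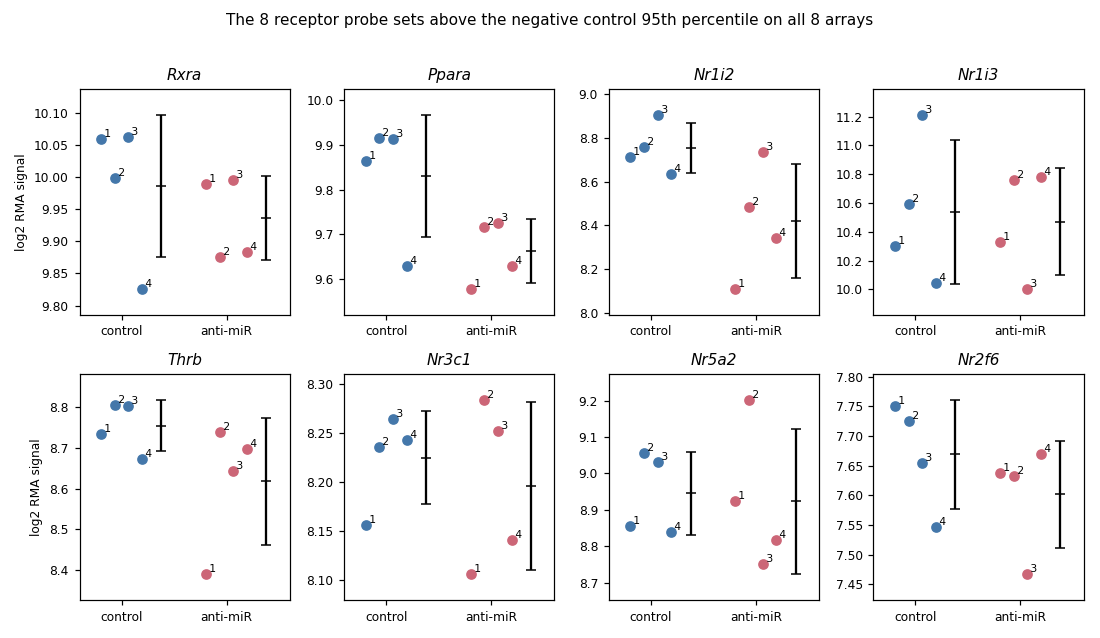
Log2 RMA signal (y axis) of the 8 receptors above the negative control 95th percentile on all 8 arrays, in control livers (blue) and anti-miR-128-3p livers (red). Numbers are replicate numbers and black bars are mean ± SD of 4 livers; the groups overlap in each panel, as for Nr1i2, where treated replicate 3 at 8.74 lies above control replicate 4 at 8.63.

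Among the xenobiotic receptors, Nr1i2, which encodes PXR, the sensor of drugs and bile acids that switches on Cyp3a genes, had the smallest p of the family. It was at 8.71, 8.76, 8.90 and 8.63 in control replicates 1 to 4 and at 8.11, 8.49, 8.74 and 8.34 in treated replicates 1 to 4. The 3 treated livers other than replicate 3 lay below all controls, and treated replicate 3 lay within the control range. The means were 8.75 ± 0.11 and 8.42 ± 0.26 (SD, n = 4 each), and control livers were 1.26-fold higher. The difference of -0.33 ± 0.12 (SE) had a limma unadjusted p of 0.0241 and an adjusted p of 0.571. It was -0.23 without treated replicate 1 and -0.44 without treated replicate 3.

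Nr1i3 encodes CAR, the receptor through which phenobarbital-like compounds induce Cyp2b genes. It was at 10.30, 10.60, 11.21 and 10.04 in the controls and at 10.33, 10.76, 10.01 and 10.78 in the treated livers. The groups overlapped over most of their ranges, and control replicate 3 lay above all treated livers. Its difference was -0.07 ± 0.26, with an interval from -0.66 to 0.52, so a change of up to about 1.58-fold lower or 1.43-fold higher lies inside it. Between mice Nr1i3 varied more than most genes: only 1.65% of all genes had a larger pooled SD within groups. Its sign turned with single livers: leaving out control replicate 3 gave 0.16, and leaving out control replicate 4 gave -0.23.

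Of the CAR and PXR target list, 13 of 18 genes were measured, and 0 had an unadjusted p under 0.05, with 8 lower and 5 higher and a median difference of -0.10. Without control replicate 4 there were 2 at that level, and leaving out control replicate 2 gave a median of -0.03, leaving out treated replicate 1 one of -0.04. Cyp2b9, a steroid and drug hydroxylase, was at 10.72, 12.18, 10.71 and 7.23 in controls and at 5.28, 8.996, 9.55 and 10.72 in treated livers. The lowest was treated replicate 1, where Nr1i2 was also lowest, and the highest was control replicate 2, which was not the liver with the most Nr1i3. Its near relative Cyp2b13 was at 9.55 in control replicate 2 and at 4.92 to 7.44 in the others. The sequences of these Cyp2b genes are close, so their probe sets may share signal. Cyp3a11, the chief mouse PXR target, differed by 0.27 ± 0.62 and Cyp2b10, the classical CAR target, by -0.45 ± 0.25, and neither passed (limma adjusted p = 0.970 and 0.740).

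Of the lipid-sensing receptors, Ppara encodes the fatty acid sensor that drives hepatic fatty acid oxidation and ketone production. It was at 9.86, 9.92, 9.91 and 9.63 in controls and at 9.58, 9.72, 9.73 and 9.63 in treated livers. The treated livers lay below 3 of the 4 controls, and control replicate 4 fell among them. Means were 9.83 ± 0.14 and 9.66 ± 0.07 (SD, n = 4 each), with controls 1.12-fold higher. The difference of -0.17 ± 0.07 had a limma unadjusted p of 0.0458 and an adjusted p of 0.641. Without control replicate 4 it was -0.24 (adjusted p = 0.320), the largest of the alternatives, and with moderation by trend the unadjusted p was 0.0746. Without control replicate 2 the difference was -0.14. Of the 16 alternatives, 7 gave a limma unadjusted p under 0.05, and the highest was 0.115.

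Most genes that PPARα is known to switch on also had lower means in treated livers. Of the 19 listed, 16 were measured, 15 were lower, and 7, or 43.8%, had an unadjusted p under 0.05. That share was 7.63% over all genes and 15.3% over the 4648 genes above the negative control 95th percentile on all arrays, where 14 of the 16 targets lay by their mean. Their median difference was -0.25, against -0.17 for the receptor. Cpt2, which hands long-chain fatty acids to oxidation inside mitochondria, was at 10.03, 9.77, 9.99 and 9.95 in controls and at 9.41, 9.65, 9.56 and 9.67 in treated livers. All treated values lay below all controls, and the difference was -0.36 ± 0.08, with the smallest p of the list (limma adjusted p = 0.234). Slc25a20, the carnitine carrier of the inner membrane, differed by -0.35 ± 0.08, also without overlap (adjusted p = 0.261). Creb3l3, a liver transcription factor of the fasting response, was at 9.49, 9.32, 9.48 and 9.38 in controls and at 9.04, 9.24, 9.16 and 9.26 in treated livers, with no overlap. It differed by -0.24 ± 0.06 (limma adjusted p = 0.346). Angptl4, an inhibitor of lipoprotein lipase, was at 8.87 to 9.44 in controls and at 8.35, 8.46, 9.11 and 8.45 in treated livers, a difference of -0.51 ± 0.18 (adjusted p = 0.542). Fabp1, the liver fatty acid binding protein gene, was the exception to the direction, at 0.20 ± 0.09. None of the 16 passed correction. The list's median stayed between -0.21 and -0.34 over all 16 alternatives, 12 of 16 were lower without control replicate 2, and the count at an unadjusted p under 0.05 was 5 to 8 lower.

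**Figure D3:**
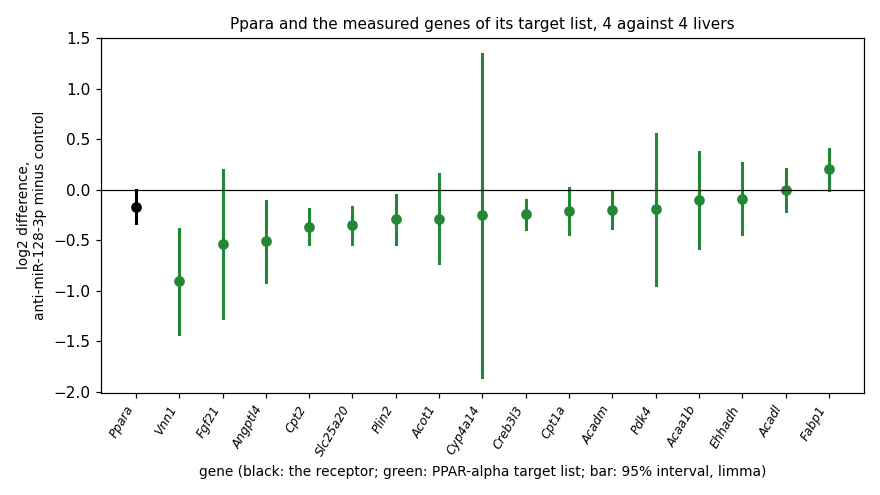
Log2 difference between treated and control livers (y axis) for Ppara (black) and the 16 measured genes of its target list (green), with limma's 95% interval as bars. The targets run from -0.91 for Vnn1, a pantetheinase gene, to 0.20 for Fabp1, against -0.17 for the receptor.

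Pparg encodes the fat-storage receptor that is induced in fatty liver. It was at 6.07, 6.85, 6.16 and 6.64 in controls and at 6.74, 6.81, 5.13 and 6.41 in treated livers. Treated replicate 3 was far below the others, and the other 3 treated livers lay within the control range. The difference was -0.16 ± 0.36 with an interval from -0.97 to 0.65 (limma adjusted p = 0.970), and it was 0.22 without treated replicate 3. Only 0.637% of all genes had a larger SD within groups. Plin4, a lipid droplet coat gene, did not have its lowest value in that liver: it was at 6.27 there against 5.80 to 6.26 in the other treated livers and 6.17 to 7.38 in controls, and its difference was -0.69 ± 0.27. Of the 9 genes of the PPARγ list, all measured, 2 had an unadjusted p under 0.05, both lower. None was lower at that level without control replicate 2 or 3 or treated replicate 1 or 2, 1 was lower without control replicate 4 or treated replicate 3, and 1 was higher without control replicate 2. They were Plin4 and Cidec, a droplet fusion gene (-0.24 ± 0.10, limma adjusted p = 0.585 and 0.599).

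For all 6 retinoid X and retinoic acid receptors the interval of the difference stayed within 1.5-fold, as for 29005 of 30627 genes. Of the 6, only Rxra was above the negative control 95th percentile on all 8 arrays. For the others the interval bounds the signal and not the transcript. Rxra was at 10.06, 9.998, 10.06 and 9.83 in controls and at 9.99, 9.88, 9.995 and 9.88 in treated livers. All treated values lay inside the control range. The means were 9.99 ± 0.11 and 9.94 ± 0.07 (SD, n = 4 each). The difference was -0.05 ± 0.06 (limma adjusted p = 0.913), and its interval ran from 1.15-fold lower to 1.07-fold higher. Leaving out each array in turn gave -0.10 to -0.03. The mRNA of this receptor was therefore not detectably higher, and any rise in it beyond 1.07-fold lies outside the interval; the protein was not measured. The fellow targets from the same report differed by -0.11 ± 0.06 for Abca1 and 0.11 ± 0.11 for Abcg1, and neither passed (limma adjusted p = 0.759 and 0.889). In the list of LXR genes and their targets, 6 of 8 were measured, 4 were lower and 1, Mylip, which marks the LDL receptor for breakdown, had an unadjusted p under 0.05 (-0.26 ± 0.09, adjusted p = 0.516). Rxrb, the widely expressed isotype, ran from 6.95 to 7.06 over all 8 livers and differed by 0.01 ± 0.04. Rxrg, an isotype of muscle and brain, differed by 0.07 ± 0.05.

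The retinoic acid receptors, which turn on genes when vitamin A acid is bound, differed by -0.09 ± 0.05 for Rara, 0.10 ± 0.08 for Rarb and -0.02 ± 0.04 for Rarg. Rarg ran from 5.83 to 5.97 over the 8 livers. None of the 6 retinoid receptors had an unadjusted p under 0.05. The list of retinoid handling genes and RAR targets had 14 of 15 genes measured, 11 lower and 3 higher, and 3 lower at an unadjusted p under 0.05, with a median of -0.05. Stra6l, a receptor for the plasma retinol carrier, was at 9.55, 9.77, 9.55 and 9.72 in controls and at 9.26, 9.42, 9.45 and 9.37 in treated livers, without overlap (-0.27 ± 0.07, limma adjusted p = 0.344). Rdh10, which oxidises retinol towards retinoic acid, was at 7.59 to 7.80 in controls and at 7.16 to 7.53 in treated livers, also without overlap (-0.28 ± 0.09, adjusted p = 0.460). Dhrs3, which reduces retinaldehyde back, differed by -0.19 ± 0.08 (adjusted p = 0.633). The count of 3 lower genes was 2 without control replicate 2 or 3 and without treated replicate 1 or 3. Cyp26a1, the retinoic acid hydroxylase that RAR induces, differed by 0.13 ± 0.07.

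Thrb, the main thyroid hormone receptor of liver, was at 8.74, 8.81, 8.80 and 8.67 in controls and at 8.39, 8.74, 8.64 and 8.70 in treated livers. Treated replicate 1 was the lowest and the others overlapped with controls or lay just below them. The difference was -0.14 ± 0.08 (limma adjusted p = 0.757) and -0.06 without treated replicate 1. In that liver Dio1, the hepatic deiodinase and a thyroid hormone target, was at 8.46 against 9.51 to 10.01 in the other 7. Klf9, a transcription factor that answers both thyroid hormone and glucocorticoids, was the one target of 6 with an unadjusted p under 0.05. It was at 10.35, 10.11, 10.24 and 10.03 in controls and at 9.69, 9.66, 10.14 and 9.30 in treated livers, a difference of -0.48 ± 0.16 (adjusted p = 0.498). At that level there were 3 targets when control replicate 1 was left out, and 2 when control replicate 3, treated replicate 2 or treated replicate 4 was. The list's median was -0.32, and -0.12 without treated replicate 1. Thra differed by 0.02 ± 0.06. Vdr, the vitamin D receptor, which hepatocytes hardly express, ran from 4.69 to 4.94 and differed by -0.02 ± 0.06. Of 5 vitamin D enzyme and carrier genes 4 were measured, and 0 had an unadjusted p under 0.05, with a median difference of 0.09. Without control replicate 4, 1 was higher at that level.

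Nr3c1, the glucocorticoid receptor, which carries the fasting and stress signal of cortisol-like hormones, had the smallest spread within groups of the 8 bright members. It was at 8.16, 8.24, 8.26 and 8.24 in controls and at 8.11, 8.28, 8.25 and 8.14 in treated livers. All control values lay inside the treated range, and the difference of -0.03 ± 0.05 had an interval from -0.15 to 0.09 (limma adjusted p = 0.960). Its target list had 12 of 13 genes measured, 6 higher and 6 lower, with 0 at an unadjusted p under 0.05. That even split depended on single livers: 9 were lower, 2 of them at that level, with a median of -0.18 without treated replicate 3, and 8 were higher with a median of 0.16 without control replicate 3. Without control replicate 2, 9 were lower with a median of -0.14. Without control replicate 1, 8 were lower and 1 was at that level. Tsc22d3, a glucocorticoid-induced anti-inflammatory gene, was highest in control replicate 3, at 8.86 against 7.11 to 8.20 elsewhere. Of the genes that supply and clear corticosteroids, 5 of 7 were measured and 1 had an unadjusted p under 0.05. This was H6pd, which feeds cofactor to the enzyme that regenerates active hormone, with a difference of -0.17 ± 0.07 (limma adjusted p = 0.584), and the count of lower genes at that level was 0 without control replicate 1 or 4 and without treated replicate 2, 3 or 4, and 0 with moderation by trend or quantile normalization.

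The other steroid receptors were Nr3c2, the mineralocorticoid receptor, at 7.23 to 7.45 with a difference of 0.07 ± 0.05, and Esr1, the estrogen receptor of liver. Esr1 was at 6.49, 6.79, 6.06 and 6.52 in controls and at 6.12, 6.48, 6.28 and 6.40 in treated livers. Controls spanned the whole treated range, with the lowest and the highest value both in that group, and the difference was -0.15 ± 0.14 (limma adjusted p = 0.877). It was -0.28 when control replicate 3 was left out and -0.04 when control replicate 2 was. Esr2, the second estrogen receptor, ran from 4.15 to 4.36, and Pgr, the progesterone receptor, from 3.76 to 3.96, both below the negative control median. All 7 estrogen metabolism genes were lower, 0 of them at an unadjusted p under 0.05, with a median of -0.17. Leaving out treated replicate 4 gave a median of -0.02 and leaving out control replicate 4 gave -0.09, with 6 lower and 1 at that level in each case. Leaving out control replicate 1 gave -0.26, again with 1 at that level, and leaving out control replicate 2 gave -0.11. Sult1e1, the estrogen sulfotransferase, was at 5.23 in control replicate 1 and at 2.92 to 3.79 in the other 7 livers.

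The estrogen-related receptors work without a known hormone and drive mitochondrial genes. Esrrg was at 5.08 to 5.81 in controls and at 5.34 to 5.53 in treated livers, a difference of -0.05 ± 0.14, and control replicate 4 was the lowest. Esrrb, a receptor of stem cells, ran from 4.71 to 4.89. In the ERR target list 9 of 10 genes were measured, none had an unadjusted p under 0.05, and differences ran from -0.09 to 0.07. Without treated replicate 2, 1 was lower at that level.

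Among the COUP-TF and testicular receptor orphans, Nr2f6 was at 7.75, 7.72, 7.66 and 7.55 in controls and at 7.64, 7.63, 7.47 and 7.67 in treated livers, with a difference of -0.07 ± 0.06. Treated replicate 3 was the lowest and the other treated livers lay inside the control range. Nr2f2, a receptor of veins and mesenchymal cells, ran from 6.56 to 6.99 and differed by -0.01 ± 0.09, with the highest value in treated replicate 2. Nr2f1, its close relative, ran from 4.62 to 4.70. Nr2c1 and Nr2c2, the testicular receptors, which mostly repress, differed by 0.08 ± 0.05 and 0.05 ± 0.05. Nr2c1 was at 6.81 to 6.85 in all 4 treated livers and at 6.63 to 6.83 in controls.

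Nr5a2 encodes LRH-1, which supports bile acid synthesis genes. It was at 8.85, 9.05, 9.03 and 8.84 in controls and at 8.92, 9.20, 8.75 and 8.82 in treated livers. Treated livers held both the highest and the lowest value, and the difference was -0.02 ± 0.10 with an interval from -0.25 to 0.21. Of its target list, 7 of 9 genes were measured, 5 lower and 2 higher, with a median difference of -0.09. Without treated replicate 2, 1 was lower at an unadjusted p under 0.05. With all arrays 1 gene, which was higher, had an unadjusted p under 0.05. This was Cyp7a1, the hydroxylase that starts the making of bile acids from cholesterol, at 8.92, 8.42, 10.19 and 10.37 in controls and at 11.21, 10.82, 10.31 and 11.24 in treated livers. Treated replicate 3 lay just below control replicate 4, and the difference was 1.42 ± 0.43 (limma adjusted p = 0.460). Nr5a1, the related receptor of steroid-making glands, ran from 5.52 to 5.66, and Nr6a1, the germ cell nuclear factor, from 6.04 to 6.24, with differences of -0.02 ± 0.05 and -0.01 ± 0.06.

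The NR4A receptors are immediate-early genes: they have no known ligand in their pocket and are switched on within minutes by glucagon, cAMP or stress. Nr4a1 had the largest difference of the family in size and the widest spread. It was at 6.46, 8.36, 6.47 and 6.78 in controls and at 6.89, 7.01, 6.27 and 6.44 in treated livers. Control replicate 2 stood alone at the top, and the other 7 livers lay between 6.27 and 7.01. The fold between the highest and the lowest liver was 4.26, and only 0.444% of all genes had a larger SD within groups. The difference of -0.36 ± 0.40 (limma adjusted p = 0.896) turned to 0.08 without control replicate 2. Nr4a2 was at 5.15 in control replicate 4 and at 4.81 to 4.89 in the other livers, and Nr4a3 ran from 3.94 to 4.09, below the negative control median.

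As a list, the other immediate-early genes were also highest in control replicate 2, with a mean of 0.13 above their average over livers, but the list was at 0.10 in treated replicate 1, and single genes differed in their order. Jun was at 8.16 and 8.05 in control replicates 2 and 3 and at 6.84 to 7.13 in the other 6. Egr1 was at 8.27 in control replicate 2, but at 8.46 in control replicate 1 and 8.53 in treated replicate 1. Fos was at 6.31 in control replicates 1 and 2 and at 5.83 to 6.16 elsewhere. Of the 13 listed, 12 were measured and 1, Klf6, had an unadjusted p under 0.05 (0.40 ± 0.14, limma adjusted p = 0.521).

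The start region of Nr4a1 is shown because it is the member that differed most between mice. The motif marked in it was singled out after this sequence was seen. The RefSeq promoter covers 250 bases before to 50 after the gene's start, chr15:101266596-101266895 on the plus strand of GRCm38.p6. Capitals mark TGCGTCA, the reverse complement of TGACGCA, a relative of the site bound by CREB and AP-1 proteins.
Nr4a1 promoter: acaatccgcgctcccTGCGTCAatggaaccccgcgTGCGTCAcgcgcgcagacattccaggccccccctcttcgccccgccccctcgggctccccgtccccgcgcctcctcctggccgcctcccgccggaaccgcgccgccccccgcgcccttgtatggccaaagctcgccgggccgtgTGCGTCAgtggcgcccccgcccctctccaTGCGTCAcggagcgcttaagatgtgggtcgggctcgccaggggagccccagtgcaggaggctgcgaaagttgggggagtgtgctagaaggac
The motif was searched on both strands and occurred 4 times here. Of 32851 promoters of the same length, 695, or 2.12%, held it at all, and 1, this one, held it 4 times, a count taken from Nr4a1 itself. Promoters were found for 28 of the 31 measured members, and no other of their 46 promoters, those of Nr4a2 and Nr4a3 included, had a match. A count of 1 in 46 member promoters is close to the 2.12% of all promoters. A match is a run of letters and not a measured binding site. As a second search, AGGTCA, the hexamer that many nuclear receptors bind, or its reverse complement TGACCT, was in 9 of the 46 member promoters and in 16.3% of all promoters. The 9 belong to 8 members (Nr5a2, Nr6a1, Pparg, Rara, Rarg, Rxra, Rxrg and Thrb). Matches of each motif were counted on their own, whether or not they overlapped with one of the other.

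**Figure D4:**
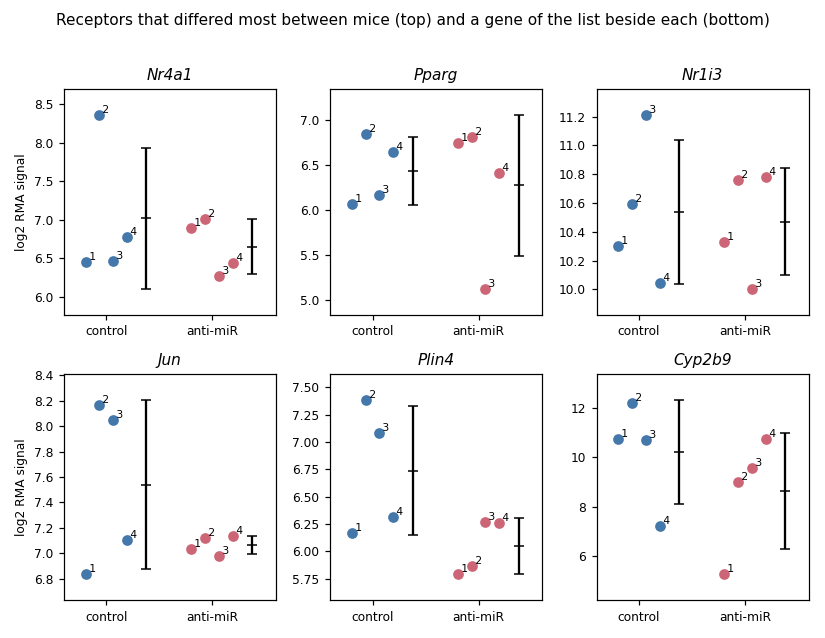
Log2 RMA signal (y axis) of the 3 receptors that differed most between mice (top) and a gene of the list described beside each (bottom), in control (blue) and anti-miR-128-3p livers (red). Numbers are replicate numbers and black bars are mean ± SD of 4 livers; control replicate 2 is alone at 8.36 for Nr4a1 and treated replicate 3 at 5.13 for Pparg. The panels were chosen after the values were seen, so they do not test whether receptor and gene vary together. Nr4a1 and Jun were both highest in control replicate 2. Plin4 was not lowest in treated replicate 3, where Pparg was, and Cyp2b9 was not highest in control replicate 3, where Nr1i3 was.

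The spread within groups was small for most members, as for most genes, and larger for a few. The pooled SD was under 0.1 for 19 of 31 members and over 0.2 for 6, with a median of 0.085 against 0.096 over all genes. Of those under 0.1, only Rxra, Nr2f6 and Nr3c1 were above the negative control 95th percentile on all 8 arrays. A small SD of a dim probe set may reflect its compressed signal and not a steady transcript. The variable members were Nr4a1, Pparg, Nr1i3, Esr1, Esrrg and Nr1i2. Treated replicate 3 held the lowest of the 8 values for 11 of the 31 members and the highest for 1. Control replicate 2 held the highest for 6. Such counts were not made over all genes, so they cannot be read as particular to the family.

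**Figure D5:**
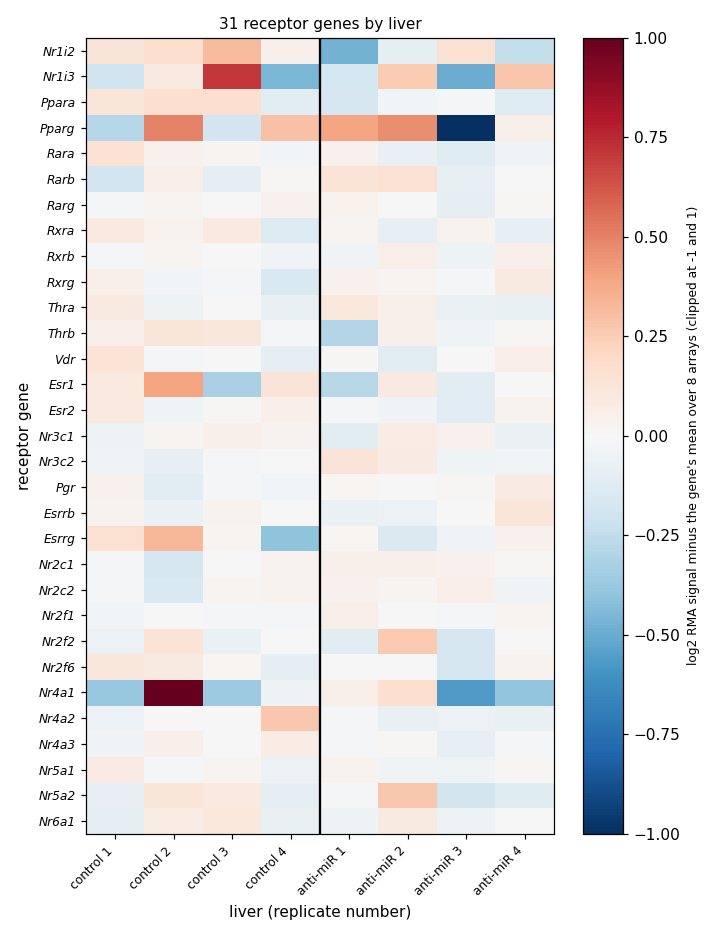
Each of the 31 receptors (rows, y axis) in each of the 8 livers (columns, x axis), coloured by log2 RMA signal minus the gene's mean over the 8 livers, clipped at -1 and 1. Most rows are pale; the strong colours are Nr4a1 in control replicate 2, Nr1i3 in control replicate 3 and Pparg in treated replicate 3.

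Receptors act through coregulators, which open or close chromatin once they are recruited. Of 19 coactivator genes, all measured, 0 had an unadjusted p under 0.05, with 8 higher and 11 lower and a median of -0.02. Without control replicate 2 there were 2 lower at that level, and 1 was lower without control replicate 1, treated replicate 2 or treated replicate 3 and with array weights. Without control replicate 4, 1 was higher. Of 14 corepressor genes 12 were measured, 11 were lower, and 2 had an unadjusted p under 0.05: Tbl1xr1, a subunit of the NCoR complex, and the scaffold gene Sin3a, each at -0.13 ± 0.05 (limma adjusted p = 0.620 and 0.631). The median of the corepressors was -0.06, and 0 of them were at that level without control replicate 3, without treated replicate 4, or with trend and robust moderation of all arrays. The count was 1 without any other single array except treated replicate 2. Among 15 other nuclear receptors outside the list, 12 were measured, 10 were lower and 2 had an unadjusted p under 0.05, or 0 without control replicate 3 and 1 without treated replicate 1, 2 or 4. One was Hnf4a, the hepatocyte identity receptor, at 10.56, 10.49, 10.71 and 10.36 in controls and at 10.12, 10.32, 10.49 and 10.22 in treated livers. It differed by -0.24 ± 0.10 (adjusted p = 0.606), with the lowest value in treated replicate 1, the liver in which Nr1i2, Thrb and Ppara were also lowest. The other was Nr0b2, a corepressing receptor without a DNA-binding domain, at 9.38, 9.26, 9.84 and 9.02 in controls and at 8.92, 8.89, 8.88 and 7.75 in treated livers. It had no overlap between groups and a difference of -0.76 ± 0.28 (adjusted p = 0.563).

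Markers of other cells differed between livers beside these values. Kupffer cell markers were all measured, and 9 of 10 were higher, with 1 at an unadjusted p under 0.05. Leaving out treated replicate 2 gave 6, leaving out control replicate 2 gave 2, and array weights gave 4. It was 0 without control replicate 1 or 3 or treated replicate 1 or 4, and with trend and robust moderation or quantile normalization. Their list level, the mean over genes of the signal minus its mean over livers, ran from -0.83 to 0.02 in controls and from -0.46 to 0.83 in treated livers, highest in treated replicate 1. Of 11 stellate markers 6 were higher, 2 of them at an unadjusted p under 0.05, and 5 were lower, also with 2 at that level. Groups did not overlap for 3 of them, 2 higher and 1 lower, and Col1a1 differed by 1.62 ± 0.41 (limma adjusted p = 0.342). The stellate level ran from -0.20 to -0.04 in controls and from -0.13 to 0.53 in treated livers, highest in treated replicate 3. Endothelial markers were lower in 9 of 10, 3 of them at an unadjusted p under 0.05. That count was 0 without control replicate 2 or 4 or treated replicate 1, and 6 without control replicate 3. The endothelial level was at -0.24 to 0.35 in controls and -0.28 to 0.12 in treated livers. Of the hepatocyte markers 8 of 10 were measured, with levels from -0.01 to 0.08 and from -0.11 to 0.09. Of these, 7 were lower, or 4 after quantile normalization, and 1, Hnf4a, had an unadjusted p under 0.05, or 0 without control replicate 1 or 3 or treated replicate 2 or 4. Of the neutrophil markers, 8 of 9 were lower, with a median of -0.27 and none at an unadjusted p under 0.05. Without control replicate 1 all 9 were higher, with a median of 0.08. Lymphocyte markers, 9 of 10 measured, had 1 at that level (2 without control replicate 4, 0 without treated replicate 4), and cholangiocyte markers, 5 of 7 measured, and adipocyte markers, 5 of 6 measured, had 0. Each of those 2 lists had 1 lower marker at that level without a single array, treated replicate 1 for the cholangiocyte and control replicate 2 for the adipocyte list. The adipocyte genes Adipoq and Lep were below the negative control median on all 8 arrays. The part of these cell types in the receptor values was not tested.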

How the data were processed

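Total liver RNA was biotin-labelled and hybridised to an Affymetrix mouse array, per the labels' protocols. The deposited values are log2 signals made with RMA by the authors, as the submitters' processing notes name it. Its version, annotation build and any filter were not given in the sources used here. Of 72688 rows, 6732 were array controls (5222 negative controls) and 65956 were transcript probe sets, of which 33206 are not listed in the platform annotation. Names were updated through Entrez IDs against RefSeq (GRCm38.p6). The 31080 probe sets of exactly 1 gene gave 30627 genes, with the brightest over 8 arrays taken for the 357 genes with several. The medians of the arrays over genes lay between 5.04 and 5.12, and arrays correlated at r = 0.992 to 0.996 across genes. The number of arrays limits the precision.

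Limma 3.58.1 in R 4.3.3 (lmFit, eBayes, two-sided, no covariate) was fitted to all 8 arrays, with Benjamini-Hochberg adjustment over all genes, and was tested on simulated data. Intervals are 95%. Python 3.11.15, pandas 2.3.3 and matplotlib 3.10.9 made tables and plots. The members, lists, rules and tests were chosen with earlier results of these data known, and the LXR genes, Pparg, Nr4a1, Esr1 and both motifs were singled out after their values or sequences were seen. The named genes were members with an unadjusted p under 0.05, members whose groups separate, the 8 brightest, and up to 3 genes per list by smallest p, with others where their receptor is described. Alternatives were trend and robust moderation, array weights, dim genes left out, the mean of probe sets, quantile normalization, median centring, the replicate block and leaving out arrays.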

Additional observations from a re-analysis of the deposited data

How the results depend on the processing

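The count of 0 members past the adjusted threshold was the same under all 16 alternatives. The 2 members at an unadjusted p under 0.05 became 1 (Nr1i2) with trend and robust moderation, with genes below the median signal left out (24 members tested), and without control replicate 1 and treated replicate 3 together, an alternative chosen after seeing the data. Leaving out each array in turn gave 0 to 3: 0 without treated replicate 1 or treated replicate 4, and 3, with Esrrg, without control replicate 4. Without control replicate 3 the 1 member was Esr1, and Nr1i2 was not called. It was Nr1i2 alone without control replicate 1 or 2 or treated replicate 2. With the replicate block the count was 2, and Nr1i2 had a limma unadjusted p of 0.00672 and an adjusted p of 0.501. Over all genes, the share at that level ran from 5.61% without treated replicate 1 to 9.87% with genes below the median signal left out. With so few members, counts of 0 to 3 cannot be told apart from these shares. Across genes, same-numbered mice did not deviate together (r = -0.12 to -0.02), and none correlated best with its own number. With so few mice this cannot show that they shared nothing but a number. The members whose groups do not overlap numbered 0 to 3 without single arrays and 4 without both arrays, where fewer arrays make separation easier. The share over all genes was not counted at these settings, so whether these counts exceed it is not known. The median difference of the members ran from -0.04 to -0.00 (-0.0036) without single arrays. It was 0.0055 without both arrays. The sign changed under at least 1 alternative in 15 of the 31 members, and 16 kept it. Of the 31, 20 members were never above the negative controls' 95th percentile, which limits what their values can show.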
